A study of Mus musculus with 10 samples.

Results

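The enzyme genes of sugar, purine and lysosomal metabolism followed here in mouse whole blood were Gapdh, G6pd2, Gk, Ldhal6b, Hprt and Gusb. They were chosen by name, 6 of the 15 reference genes whose RefSeq accessions the array files give, among 60915 probes analysed, and each was read by 1 probe printed in 20 spots per array. All 10 mice were female C57BL/6 aged 3 months, and no genetic change is named in the labels. In the 5 mice of the MWCNT group, blood was drawn 56 days after 40 µg of multi-walled carbon nanotubes, hollow fibres of rolled carbon sheets, had been placed at the back of the throat and drawn into the lung with the breath (pharyngeal aspiration). The 5 mice of the Control group had received the vehicle. Each mouse gave 1 array of a 1-colour Agilent design, and blood was not separated into cell types, so that fewer cells of a type and less RNA per cell cannot be told apart. Values are log2 intensities minus the 75th percentile of the same array, called scaled log2 levels, and 1 unit is a 2-fold step. A level is only compared with the same probe on other arrays, never with another gene.

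The enzymes stand at separate branches of metabolism. Gapdh carries out the oxidation step of glycolysis, the pathway on which mature red blood cells, which have no mitochondria, depend for ATP. G6pd2 is an intronless autosomal copy of G6pdx, whose product opens the pentose phosphate pathway and supplies the NADPH that protects red cells from oxidants. Gk encodes glycerol kinase, which phosphorylates glycerol for lipid synthesis or entry into glycolysis, and Ldhal6b is a lactate dehydrogenase A-like gene. Hprt salvages hypoxanthine and guanine into purine nucleotides, and Gusb is the lysosomal beta-glucuronidase. Gapdh, Hprt and Gusb are widely used as reference genes, the use for which unvarying expression is assumed.

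The headers of the scanner files place the arrays in 2 scan runs. The first run held 8 arrays, of Control 1 to 5 and MWCNT 1 to 3, and the second held those of MWCNT 4 and 5 alone. Between 42.0% and 47.7% of probes were well above background on the arrays of the first run, against 55.2% and 58.5% in the second. The median intensity of negative control spots was 62 to 72 in the first run, and 42.25 (MWCNT 4) and 40.5 (MWCNT 5) in the second. No spot was saturated. The second run held no control mouse, so the run and the mice in it cannot be told apart, and the exposure differences of the enzymes, of their ratios and of the control probes are given with and without it. Of 38 marker genes of blood cell types listed for this work, the files name 2. Tfrc, the transferrin receptor of immature red cells, and B2m, the light chain of class I antigen-presenting molecules of nucleated cells, were well above background on all 10 arrays. Neither tells one leukocyte type from another, so the cell composition was not tested.

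Promoter windows of 250 bases upstream of the start site, from RefSeq (GRCm38.p6), are shown for 4 of the genes because they span the range from CpG-rich to CpG-free. All 6 genes matched an entry. Sequences run 5′ to 3′ on the strand of the gene. Capitals mark matches on either strand to the GC box (GGGCGG), the TATA box (TATAAA), the CCAAT box (its name gives its letters) and the E-box (CACGTG). The cAMP response element, TGACGTCA, had no match in the 6 windows.
Hprt, chrX:52987828-52988077, plus strand: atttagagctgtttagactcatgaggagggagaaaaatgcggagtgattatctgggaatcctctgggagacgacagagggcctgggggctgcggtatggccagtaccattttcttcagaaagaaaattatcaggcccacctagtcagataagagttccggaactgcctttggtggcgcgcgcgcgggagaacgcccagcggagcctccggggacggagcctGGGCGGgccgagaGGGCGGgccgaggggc
Gk, chrX:85776820-85777069, minus strand: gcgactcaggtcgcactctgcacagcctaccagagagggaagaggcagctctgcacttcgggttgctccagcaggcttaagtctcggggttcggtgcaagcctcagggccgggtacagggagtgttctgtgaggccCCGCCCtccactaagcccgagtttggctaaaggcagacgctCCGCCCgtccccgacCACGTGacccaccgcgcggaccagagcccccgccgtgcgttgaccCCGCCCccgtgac
G6pd2, chr5:61808593-61808842, plus strand: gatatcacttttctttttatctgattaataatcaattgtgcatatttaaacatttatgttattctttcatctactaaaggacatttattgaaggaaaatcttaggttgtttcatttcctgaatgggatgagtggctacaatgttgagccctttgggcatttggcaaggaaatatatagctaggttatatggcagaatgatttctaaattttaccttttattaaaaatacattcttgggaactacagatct
Ldhal6b, chr17:5418768-5419017, minus strand: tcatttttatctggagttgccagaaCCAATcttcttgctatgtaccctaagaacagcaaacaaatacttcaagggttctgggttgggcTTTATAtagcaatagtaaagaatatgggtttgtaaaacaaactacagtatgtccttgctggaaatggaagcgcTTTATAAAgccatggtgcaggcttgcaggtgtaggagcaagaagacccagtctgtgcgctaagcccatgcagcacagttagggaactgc
Hprt and Gk, the X-linked pair, held 17 and 21 CpG dinucleotides with 2 and 3 GC boxes, and the Gk window also held 1 E-box. The G6pd2 window held no CpG, as did 7.87% of all 32851 windows, and none of the motifs searched. Ldhal6b held 2 CpG, 1 CCAAT box and 3 TATA matches, of which the last 2 overlap in the run TTTATAAA. Gapdh and Gusb, whose windows are not printed, held 8 and 3 CpG and no motif of the list. The median over all windows was 6 CpG. A GC box occurred in 32.7% of all windows, a TATA match in 12.4%, a CCAAT box in 33.8%, an E-box in 6.02% and a cAMP response element in 1.55%. Over 300 bases, the window and the 50 bases after the start, the longest run of identical bases that G6pd2 shared with G6pdx was 27, against 8 to 11 for the other 5 genes.

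Of the 6 enzymes, 5 had probes that were measured in blood, that of G6pd2 without telling its signal from that of G6pdx. Gapdh, G6pd2, Gk and Hprt were well above background on all 10 arrays, and Gusb on 9. On the array of Control 4 only 9 of 19 usable Gusb spots were well above background, so its level there is only a bound. Ldhal6b, known mainly from testis, passed that mark on no array. None of its 190 usable spots passed, and 2 of all 200 did when spots marked as outliers were included. Its mean over usable spots was 3.17 to 6.35 intensity units on the 10 arrays, while the dimmest probe counted as well above background read 14.4 to 31.9. In the authors' deposited table it lay between 2.41 and 2.81 on the log2 scale, where no column had a minimum above 2.45. No difference between groups could therefore be measured for Ldhal6b.

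Gapdh varied less than 2-fold among the control mice. Its scaled log2 levels were 2.59, 2.89, 3.49, 2.84 and 3.02 in Control 1 to 5, and 3.29, 2.88, 3.06, 1.91 and 2.34 in MWCNT 1 to 5. MWCNT 4 and 5, the mice of the second scan run, lay below all 8 others, and MWCNT 1 to 3 lay within the control range. Processed copies of Gapdh are numerous in the mouse genome, and their part in this signal was not tested. The control mean was 2.97 ± 0.33 (SD, n = 5) and the MWCNT mean 2.69 ± 0.56 (SD, n = 5).

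G6pd2 varied least among the measured enzymes, with an SD of 0.21 over all 10 mice. Its scaled log2 levels were -3.39, -3.04, -3.26, -3.73 and -3.53 in Control 1 to 5 and -3.22, -3.46, -3.59, -3.65 and -3.48 in MWCNT 1 to 5, and the groups overlapped throughout. Control 4 was the lowest of all and Control 2 the highest, and MWCNT 4 and 5 lay between them. Because the probe sequences were not used here, signal from G6pdx, the gene of which G6pd2 is a copy, cannot be told apart from its own.

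Gk gave levels of -2.50, -2.01, -2.51, -2.10 and -1.67 in Control 1 to 5 and -2.24, -2.29, -2.02, -1.98 and -2.39 in MWCNT 1 to 5. The highest and the lowest mouse were both controls, and the 5 exposed mice lay between them. Control 5, the highest, kept only 10 of its 20 Gk spots, because the other 10 were marked as non-uniform.

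Hprt spanned a wider range than Gapdh in both groups. It stood at -0.86, -0.37, -0.14, -1.27 and -0.14 in Control 1 to 5 and at 0.18, -0.72, -0.35, -1.68 and -1.39 in MWCNT 1 to 5. The highest mouse and the 2 lowest were all exposed, and the low pair was again MWCNT 4 and 5, just below Control 4. The control mean was -0.56 ± 0.49 (SD, n = 5), and the MWCNT mean -0.79 ± 0.75 (SD, n = 5).

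Gusb differed most among the control mice. Its levels were -4.76, -3.96, -4.29, -5.67 and -4.75 in Control 1 to 5, the fourth being the bound named above, and -4.00, -4.66, -4.73, -5.67 and -4.78 in MWCNT 1 to 5. One mouse of each group stood far below the rest, Control 4 in the first scan run and MWCNT 4 in the second, while MWCNT 5 was the third lowest of all, just below Control 1.

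**Figure D1:**
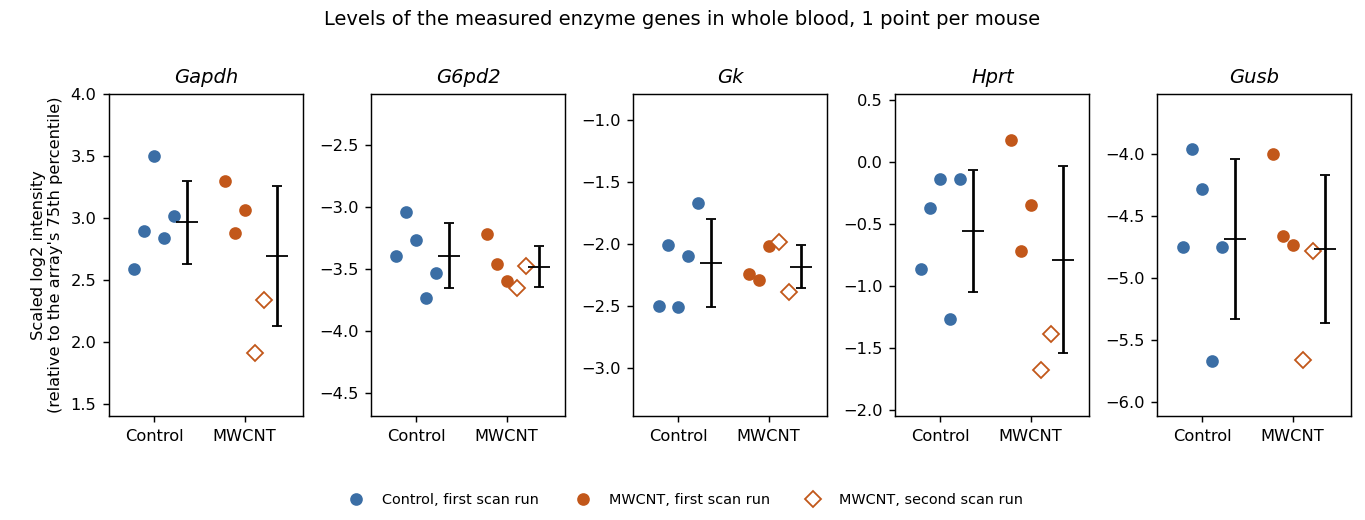
Scaled log2 intensity of the 5 measured enzyme genes, 1 point per mouse, with the mean and SD of each group of 5 in black. Filled circles are arrays of the first scan run and open diamonds MWCNT 4 and 5 of the second, which lie below all others for Gapdh and Hprt and within the range of the others for Gk and G6pd2. All panels span the same number of log2 units.

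No enzyme passed the test between exposed and control mice. Nor did any other probe, since 0 of 28009 tested probes (0%) had an adjusted p under 0.05 in limma with Benjamini-Hochberg adjustment, and 805 (2.87%) had an unadjusted p under that value. Gapdh and Hprt, the glycolytic and purine salvage enzymes, had the largest estimates over the 10 arrays with this scaling, and neither was below 0 within the first scan run. The Gapdh estimate, MWCNT minus Control, was -0.27 log2 units (SE 0.27, 95% interval -0.87 to 0.32, adjusted p = 0.810). The Hprt estimate was -0.23 (SE 0.35, interval -0.995 to 0.53, adjusted p = 0.838). Without MWCNT 4 these were -0.074 and -0.013, and without MWCNT 1 they were -0.42 and -0.48. Over the 10 arrays the estimates of G6pd2 (-0.089, interval -0.48 to 0.31), Gk (-0.026, -0.46 to 0.41) and Gusb (-0.085, -0.83 to 0.66) were smaller, with adjusted p of 0.874, 0.968 and 0.937. The Gusb estimate includes the bound of Control 4, and was -0.33 without that array and 0.14 without MWCNT 4. With this scaling all 5 estimates over the 10 arrays lay below 0 (Gk turned under normexp), as did 55.3% of all tested probes, whose median was -0.045.

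With the scan run as a block, the estimate comes from the 8 arrays of the first run. Gapdh then stood at 0.11 (SE 0.21, interval -0.36 to 0.59), Hprt at 0.26 (SE 0.29, interval -0.39 to 0.90) and Gusb at 0.22 (SE 0.36, interval -0.59 to 1.02), each with the sign turned. The sign of Gusb rests on Control 4, whose level of -5.67 is only a bound. The other controls, at -4.76, -3.96, -4.29 and -4.75, lay on both sides of the mean of MWCNT 1 to 3, -4.47. G6pd2 and Gk stayed at -0.032 and -0.026, and none of the 5 passed (adjusted p = 0.9999 for each). On this scale 3 of 5 enzymes were above 0, against 58.0% of all probes, 0% were called, and 991 probes (3.54%) had an unadjusted p under 0.05.

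The width of the intervals comes largely from the spread between arrays of a group, 1 array per mouse. Over all 10 arrays that spread also holds the difference between scan runs. Over all 10 arrays each of the 5 intervals lay within a 2-fold change in either direction, as it did for 76.6% of all probes. With the run as a block that held for all but Gusb, whose interval reached 2.03-fold higher, and for 86.5% of all probes. In the deposited table the interval of Hprt reached 0.459-fold, beyond a 2-fold fall. For Hprt the interval of the ratio of exposed to control mice was 0.502 to 1.44 over 10 arrays and 0.765 to 1.87 with the block. For Gk it was 0.725 to 1.33 and 0.707 to 1.36.

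**Figure D2:**
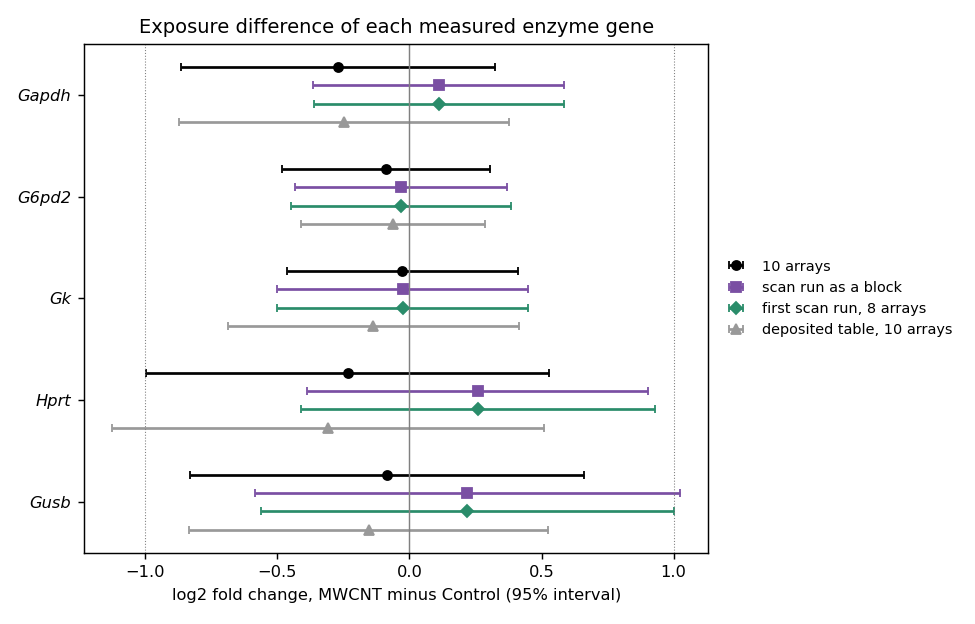
Log2 fold change of MWCNT over Control mice (x axis) with its 95% interval for each measured enzyme, by 4 fits: 10 arrays, the scan run as a block, the first run alone, and the authors' deposited table. Every interval spans 0, and the estimates of Gapdh, Hprt and Gusb move from below to above 0 when the second scan run no longer informs them. For Gusb this rests on Control 4, whose level is only a bound. Dotted lines mark a 2-fold change.

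The scan runs were compared within the MWCNT group, 2 mice against 3. Gapdh and Hprt, 2 of the 5 enzymes, were called lower in the second run. Gapdh averaged 2.12 in MWCNT 4 and 5 and 3.08 in MWCNT 1 to 3 (log2 difference -0.95, SE 0.24, adjusted p = 0.0350). Hprt averaged -1.53 and -0.30 (difference -1.23, SE 0.30, adjusted p = 0.0335). The share called was 27.6% of 28008 probes, 16.0% of all probes being lower and called, so calls were common between the runs. The median of all probes shifted by -0.22, and by -0.38 to -0.068 under the other scalings, so the differences of Gapdh and Hprt are to be read against that shift. With this scaling the difference was below 0 for all 5 enzymes and for 59.3% of all probes. Leaving out MWCNT 1, 2, 3 or 4 ended both calls, with adjusted p of 0.0694 to 0.153 for Gapdh and 0.0668 to 0.133 for Hprt, whereas without MWCNT 5 they were 0.0320 and 0.0396. The number of probes called moved with it, to 711 without MWCNT 1, 0 without MWCNT 2, 3 or 4, and 8867 without MWCNT 5. In limma, 10944, 10941 and 8294 probes had an unadjusted p under 0.05 without MWCNT 2, 3 and 4. In the deposited table the Gapdh difference was -0.92 (adjusted p = 0.0791) and that of Hprt -1.36 (adjusted p = 0.0339), with 20.1% of probes called.

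The remaining enzymes were not called between runs. Gusb averaged -5.22 in the second run and -4.47 in the first (difference -0.76, SE 0.35, adjusted p = 0.139). Without MWCNT 4 the difference was -0.32, and without MWCNT 5 it was -1.20 and called (adjusted p = 0.0472), as it was with normexp background correction, at -0.67 (adjusted p = 0.0176). G6pd2 differed by -0.14 (SE 0.22, adjusted p = 0.627) and Gk by -0.0019 (SE 0.23, adjusted p = 0.995), with intervals of -0.66 to 0.37 and -0.54 to 0.54, and the sign of Gk turned under other scalings, that of G6pd2 in the deposited table and, to 0.017, when outlier spots were kept. Against all 8 arrays of the first run, both groups together, Gapdh was lower (difference -0.89, adjusted p = 0.00973) and Hprt differed by -1.07 (adjusted p = 0.0184), where 43.0% of probes were called and 26.1% were called and lower. B2m moved with the runs as well, from 6.24 to 5.18 (difference -1.06, adjusted p = 0.0292). Tfrc was not called, at -0.57 and -1.31 (adjusted p = 0.245), and its part and that of signal over background in the low Gapdh and Hprt were not tested.

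Mouse control probes for Gapdh on the same arrays also had their lowest values in the second run. The array carries control probes named Mouse-GAPDH_3 and Mouse-GAPDH_5, each in 10 spots and left out of the test over all probes. From MWCNT 1 to 5, Mouse-GAPDH_3 read 2.27, 1.84, 2.05, 0.79 and 1.27, and controls ranged from 1.51 to 2.49. Mouse-GAPDH_5 read 1.15, 0.56, 0.46, -0.14 and 0.017, and controls ranged from 0.37 to 1.01. On both probes, MWCNT 4 and 5 were again the lowest of the 10. The difference between the reference probe and Mouse-GAPDH_3 on an array averaged 1.05 ± 0.042 in the Control group and 1.05 ± 0.044 in the MWCNT group (SD, n = 5 each), so the pair kept nearly the same distance on every array. The difference between Mouse-GAPDH_3 and Mouse-GAPDH_5 averaged 1.22 ± 0.25 and 1.23 ± 0.24 in the same order (SD, n = 5 each), a difference of 0.0095 (p = 0.952, 2-sided exact permutation test over 252 assignments). It was 0.92 in MWCNT 4 and 1.25 in MWCNT 5, inside the 0.90 to 1.58 of the first run. Control probes named for rat and human GAPDH were well above background on all 10 arrays, and not all showed the same order. On Human-GAPDH_5, MWCNT 5 read -4.08, above Control 1, 4 and 5 and MWCNT 2 and 3, and on Rat-GAPDH_5 it read -3.24, above Control 4 at -3.32.

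Among the fixed lists of pathway genes, the files name hardly any. Of 20 glycolysis genes, 14 of purine salvage and synthesis, 19 lysosomal hydrolases and 9 of glycerol and glycerolipid metabolism, 1 each was named, and it was the enzyme described here in each case. None of 7 pentose phosphate genes was named, a list that holds G6pdx but not G6pd2. Pgk1, which makes ATP in the glycolytic step after Gapdh, has control probes of its own. Mouse-PGK1_3 read 0.24, -0.41, -0.13, -1.25 and -0.78 in MWCNT 1 to 5 and -0.69 to 0.096 in controls, so MWCNT 4 and 5 were the lowest here too. Mouse-PGK1_5 passed the background mark on none of the 10. Exposure differences of the 3 measured control probes were -0.28, -0.29 and -0.28 (adjusted p = 0.381 for each over the 3, 2-sided exact permutation tests), and within the first run they were 0.13, 0.025 and 0.084.

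**Figure D3:**
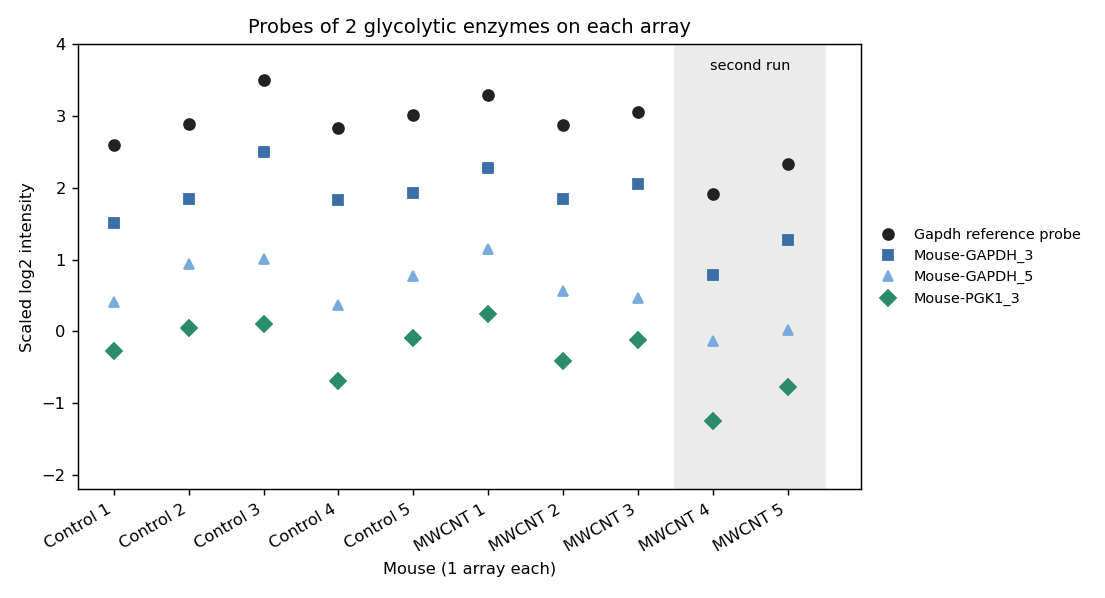
Scaled log2 intensity of the Gapdh reference probe and of 3 control probes of Gapdh and Pgk1 on each of the 10 arrays. All 4 probes have their lowest values on the shaded arrays of MWCNT 4 and 5, and the heights of different probes are not compared.

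Ratios between enzymes on one array do not depend on a scaling constant of that array. The 5 measured enzymes form 10 pairs. None passed the test between exposed and control mice, with unadjusted p of 0.492 or more and an adjusted p of 0.984 for each pair (2-sided exact permutation tests over 252 assignments, Benjamini-Hochberg over 10 pairs). The smallest p this design allows is 0.00794, with which 1 pair alone could not pass the adjustment over 10 pairs. The log2 ratio of Gapdh to Hprt had one of the smallest differences, with 3.52 ± 0.37 in the Control group and 3.49 ± 0.23 in the MWCNT group (SD, n = 5 each). G6pd2 to Gusb gave 1.29 ± 0.40 and 1.29 ± 0.45 (SD, n = 5 each). Gk to Gusb had the largest SD over the 10 arrays of the 10 pairs, with 2.53 ± 0.77 and 2.58 ± 0.70 (SD, n = 5 each). Within the first run alone, 0 of 10 pairs had an unadjusted p under 0.05, and the smallest was 0.250, for G6pd2 to Hprt.

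Between scan runs, 2 pairs set the arrays of MWCNT 4 and 5 outside all 8 others. Gapdh to G6pd2 was 5.56 and 5.81 in MWCNT 4 and 5 and 5.93 to 6.76 in the first run, a log2 difference of -0.72 (unadjusted p = 0.0222, adjusted p = 0.111, exact permutation test over 45 assignments). G6pd2 to Hprt was -1.98 and -2.09 against -3.40 to -2.47, a difference of 0.91 with the same p values. The p of 0.0222 is the smallest that 2 against 8 arrays allow, and 0 of 10 pairs passed the adjustment. With 2 pairs at that p the adjusted p is 0.111 over 10 pairs, so these 2 could not pass by themselves. Gapdh to Hprt, in contrast, was 3.58 and 3.72 in MWCNT 4 and 5, inside the 3.12 to 4.10 of the first run (difference 0.19, p = 0.422, exact permutation test). With cyclic loess the Gapdh to G6pd2 difference was -0.28 (unadjusted p = 0.289), with quantile normalization -0.55 (p = 0.0889) and in the deposited table -0.88 (p = 0.0667), by the same exact permutation test. For G6pd2 to Hprt these were 0.80, 0.95 and 1.25, each with an unadjusted p of 0.0222 in the exact permutation test.

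**Figure D4:**
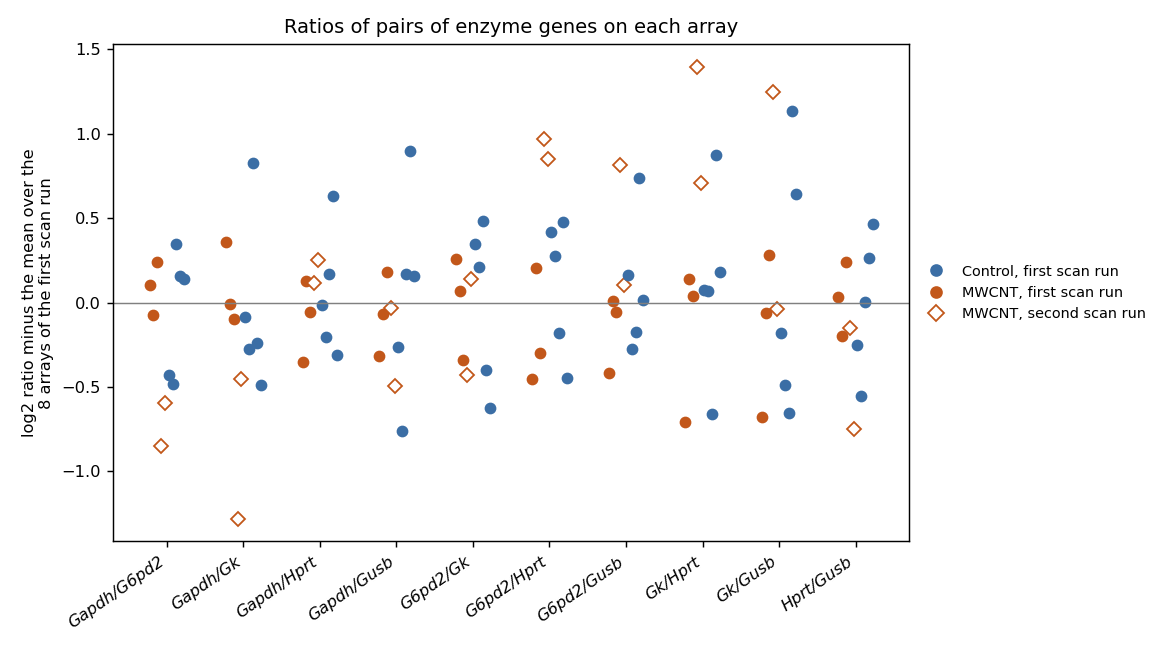
Log2 ratio of each pair of enzymes on each array minus the mean of that ratio over the 8 arrays of the first scan run. The open diamonds of MWCNT 4 and 5 lie outside all 8 other points for Gapdh/G6pd2 and G6pd2/Hprt and inside them for Gapdh/Hprt, Gapdh/Gusb and G6pd2/Gk.

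Across the 8 mice of the first run, G6pd2 and Gusb, the copy of G6pdx and the lysosomal enzyme gene, had the highest Pearson r of the 10 pairs. It was 0.92 (permutation p = 0.00107, adjusted p = 0.0107 over 10 pairs) and Spearman's rho 0.83 (permutation p = 0.0154, adjusted p = 0.0769). Without Control 2 and Control 4, the mice farthest from the median of G6pd2, r was 0.87, and in the deposited table it was 0.85 with an adjusted p of 0.0849. Leaving out MWCNT 1 gave an adjusted p of 0.0794. Both probes are dim, and the Gusb level of Control 4 is a bound. Gapdh and Hprt gave r = 0.74 (permutation p = 0.0366, adjusted p = 0.122) and the highest rho of the 10 pairs, 0.86 (permutation p = 0.0107, adjusted p = 0.0769). Without Control 3 and Control 1 their r was 0.84. Hprt and Gusb gave r = 0.80 (permutation p = 0.0184, adjusted p = 0.0920), which rests on Control 4 and MWCNT 1, since r was 0.33 without them, and rho was 0.55. Pairs with Gk had r between -0.27 and 0.16. The 8 points hold both groups and share their array and its scaling.

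Likeness to other genes was measured as Pearson r among the 14 measured reference genes and is given as a description. Gapdh was most like Tuba1b, a tubulin (r = 0.97 over 10 arrays), Actb, cytoskeletal actin (0.94) and Ppia, cyclophilin A (0.92). Within the first run the order was Tuba1b (0.91), Actb (0.89) and B2m (0.83). Hprt was most like Tuba1b (0.96), Ppia (0.96) and the ribosomal protein gene Rpl13a (0.91), and the same 3 led in the first run. Not all reference genes ran alike. The lowest r was -0.70 for Gapdh and -0.62 for Hprt over 10 arrays, and -0.81 and -0.80 in the first run. Gusb followed Rpl13a (0.94), G6pd2 (0.91) and Hprt (0.81), with Tbp, the TATA-binding protein, at 0.86 in place of Hprt in the first run. G6pd2 followed Gusb (0.91), Tbp (0.85) and Rpl13a (0.79), and in the first run Gusb (0.92), Tbp (0.88) and the chaperone gene Hsp90ab1 (0.88). Gk followed none of them closely. Its highest values were 0.21 with B2m, 0.14 with Tbp and 0.12 with Tfrc over 10 arrays, and 0.28 with B2m, 0.16 with Hprt and 0.14 with Ppia in the first run.

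The 20 spots per gene show how precisely each level was read. For Gapdh and Hprt the SD between usable spots on an array had a median of 0.044 and 0.050 log2 units, while the SD between control mice was 0.33 and 0.49. Each mouse gave 1 array, so the SD between mice also holds differences in labelling, hybridisation and scaling. For G6pd2 and Gusb the SD between spots was 0.12 and 0.14, and between control mice 0.26 and 0.65. Gk was read least precisely, with a median SD between spots of 0.29, where its SD between control mice was 0.35. A level averages the usable spots of an array, and the SE of that mean had a median of 0.064 for Gk. The SE takes spots as independent, although Gk spots differed with their column on the array. On the array of MWCNT 1 the brightest usable Gk spot was 4.23 times the dimmest. Of 200 Gk spots, 25 were marked as outliers, 15 of them as non-uniform, 10 on Control 5.

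The intensity of Gk spots went with their column on the array. On all 10 arrays the median of the usable Gk spots in columns below 60 was dimmer than that of the rest, by a median of 0.29 log2 units (log2 difference -0.80 to -0.10, median -0.29). G6pd2 spots showed the same on all 10 arrays (median -0.19), whereas medians for Gapdh, Hprt and Gusb were -0.013, 0.032 and -0.017. The boundary was chosen after the spots were seen, and on Control 5 the Gk value rests on 1 usable spot in the lower columns. On Control 5 the order turned when outlier spots were included, with a median intensity of 947 for spots in the lower columns and 465 elsewhere. Keeping all spots moved the exposure difference of Gk from -0.026 to -0.12 and that of Gapdh from -0.27 to -0.35. In the deposited table, Gk on Control 5 stood at 9.16, against 8.64 in quantile-normalized scanner values without outlier spots, and Gapdh on MWCNT 4 at 11.9 against 12.4. On MWCNT 4 the dimmest Gapdh spot, marked as an outlier, read 27.7 intensity units, while the usable spots averaged 6664. Outlier spots on the same array read 3.17 for Hprt and 9123 for G6pd2, where usable spots read 521 to 590 and 120 to 163.

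**Figure D5:**
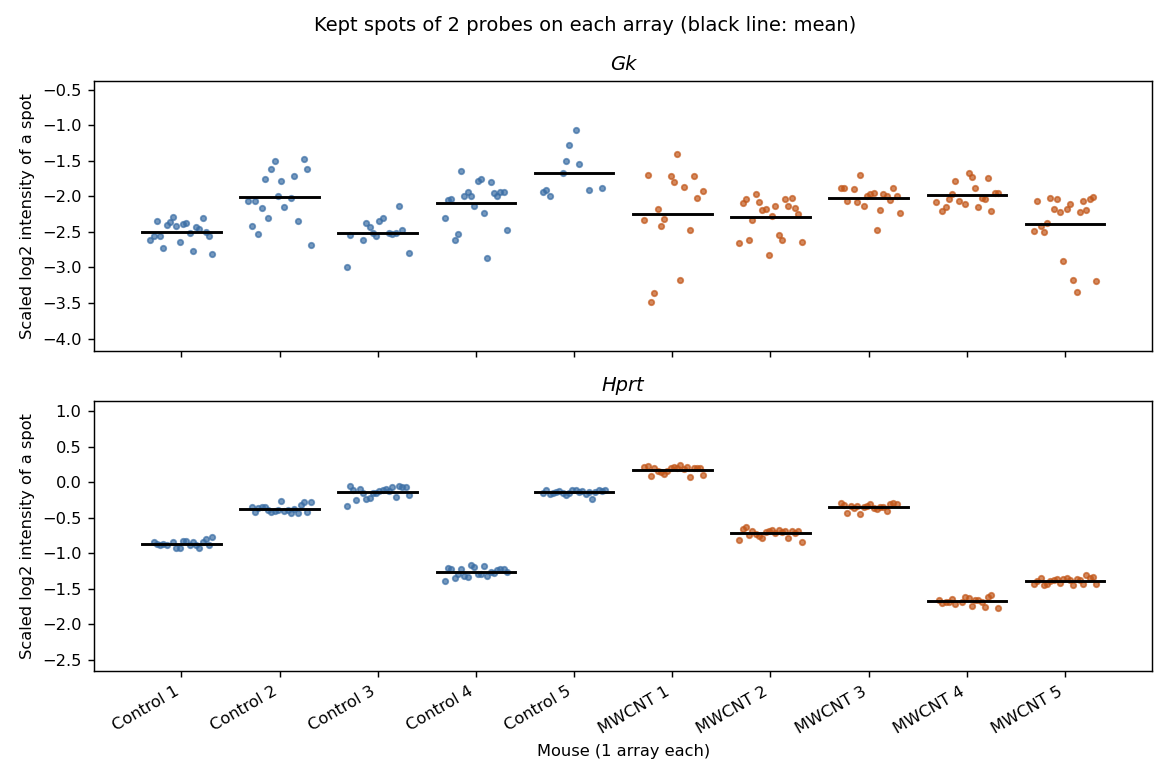
Scaled log2 intensity of each usable spot of the Gk and Hprt probes on each of the 10 arrays, with the mean as a black line. Hprt spots cluster tightly and many mice stand apart, though not all, as Control 3 and Control 5 have nearly the same mean. Gk spots on MWCNT 1 span more than the means of all 10 mice. Both panels cover the same number of log2 units.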

How the data were processed

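RNA of whole blood was extracted with a PAXgene kit, freed of ribosomal RNA, amplified by random priming, labelled with Cy3 and hybridised, per the labels' protocols. The deposited scanner files hold background-subtracted spot intensity from Agilent Feature Extraction 11.0.1.1, not adjusted between arrays, and flags that mark outlier spots, saturation and signal above background, per the file headers. The authors' deposited table holds log2 values, its normalization not being given in the sources used here, and it was used as an alternative.

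Of 62939 spots per array, control spots, negative probes and outlier spots were left out, and the log2 processed signals of a probe were averaged, giving 60915 probes. A probe counted as well above background on an array when at least 50% of its usable spots did. The 75th percentile of the 23245 probes that passed on each of the 10 arrays was subtracted from each array. Probes well above background on at least 5 arrays (28009) were tested in limma (3.58.1, R 4.3.3) by lmFit and eBayes. P-values are 2-sided, adjusted over all tested probes by Benjamini-Hochberg, and called under 0.05. Pair ratios and control probes were compared with exact permutation tests. The limma fit was tested on simulated data, and the permutation test on made-up groups that did not overlap. Spot averaging, scaling and the filter were not tested in this way.

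The rule for named genes took the 6 enzymes, the 3 reference genes most like each by Pearson r, and those genes of the pathway lists that the files name. The members and lists were chosen with earlier results of these data known. Alternatives were quantile, cyclic loess and median scaling, the percentile over all probes, normexp (offset 50, on median spot signals, the mean signals not being used here), the deposited table, no filter or a filter on all arrays, a threshold of 0.1, array weights, trended and robust eBayes, the scan run and the replicate number as blocks, the median over spots, and each array left out in turn. Alternatives for ratios between runs, for correlations and for outlier spots were chosen after seeing the data. Probe annotation and probe sequences were not used here, and no accession was matched beyond the 15 named genes. The number of arrays limits the precision.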

Additional observations from a re-analysis of the deposited data

How the results depend on the processing

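No exposure difference of an enzyme, pair ratio or control probe passed its threshold under any alternative run. With the scan run as a block, or within the first run, the exposure differences of Gapdh, Hprt and Gusb turned to 0.11, 0.26 and 0.22. The turn of Gusb rests on Control 4, whose level is only a bound. The ratios that turned within the first run were Gapdh/G6pd2 (0.14), Gapdh/Gk (0.14), G6pd2/Hprt (-0.29), Gk/Hprt (-0.28), Gk/Gusb (-0.24) and Hprt/Gusb (0.040), and so did the control probes Mouse-GAPDH_3 (0.13), Mouse-GAPDH_5 (0.025) and Mouse-PGK1_3 (0.084). Array weights gave 0.026 for Gapdh, 0.044 for Gk, 0.018 for Hprt, -0.28 for G6pd2 and -0.30 for Gusb, with 2 probes called and 3742 at an unadjusted p under 0.05. Without a filter and without weights the latter number was 1627, out of up to 60915 probes instead of 28009. The weights were lowest for MWCNT 4 (0.172) and MWCNT 5 (0.309), the arrays of the second run. Gk turned to 0.042 with normexp and 0.060 with the median over spots.

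The ratio G6pd2/Gusb turned to 0.020 with quantile normalization, 0.022 with cyclic loess, 0.066 with normexp, 0.091 in the deposited table and 0.026 with the median over spots. Gapdh/Hprt turned to 0.078 with quantile normalization, 0.11 with cyclic loess and 0.061 in the deposited table. Cyclic loess also turned Gapdh/G6pd2 (0.023) and Gapdh/Gusb (0.045), and the deposited table G6pd2/Gk (0.073).

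Between scan runs the Gapdh call was lost with quantile normalization (-0.73), cyclic loess (-0.48) and the deposited table (-0.92), and that of Hprt with cyclic loess (-1.08). Both kept their sign under all alternatives run. Gusb was called with normexp (-0.67) and without MWCNT 5. Gk turned to 0.065 with quantile normalization, 0.082 with cyclic loess, 0.050 with median scaling, 0.080 with the percentile over all probes and 0.012 in the deposited table, where G6pd2 turned to 0.10 and its ratio to Gk to 0.12. Gapdh/Gusb turned to 0.25 with cyclic loess. Probes called numbered 5043 with cyclic loess, 14184 with normexp, 26979 without a filter (out of up to 60915 probes) and 12035 against all 8 arrays of the first run, with 7736 within the MWCNT group. The correlation of G6pd2 with Gusb missed the threshold with quantile normalization (0.86), the percentile over all probes (0.86) and the deposited table (0.85). The cause of these changes was not tested.

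With each array left out in turn, the exposure difference ranged from -0.42 to -0.074 for Gapdh, -0.48 to -0.013 for Hprt, -0.17 to -0.00029 for G6pd2, -0.11 to 0.096 for Gk and -0.33 to 0.14 for Gusb, and unadjusted calls from 389 to 2633. Ratios between groups ranged from -0.41 to 0.0022 (Gapdh/Gk), -0.13 to 0.11 (Gapdh/Hprt), -0.39 to 0.028 (Gapdh/Gusb), -0.22 to 0.057 (G6pd2/Gk), -0.033 to 0.32 (G6pd2/Hprt), -0.19 to 0.16 (G6pd2/Gusb), -0.063 to 0.46 (Gk/Hprt) and -0.22 to 0.32 (Gk/Gusb). Between runs, where a lone second array is assumed to vary like the other run, Gapdh ranged from -1.17 to -0.74, Hprt from -1.44 to -0.996, Gusb from -1.20 to -0.32, Gk from -0.20 to 0.20, G6pd2/Gk from -0.43 to 0.14, Gk/Gusb from -0.039 to 1.25 and the probes called from 0 to 8867. The correlation of G6pd2 with Gusb ranged from 0.91 to 0.95 and that of Hprt with Gusb from 0.56 to 0.87, the latter passing the adjustment without Control 2 (adjusted p = 0.0417, permutation).

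The replicate numbers of the labels were not taken as a pairing of mice, because an exposed and a control mouse that bear one number did not always deviate alike from their groups (r = -0.45, 0.079, 0.29, 0.33 and -0.20 over probes), and 2 of 5 resembled their own number best. With the replicate number as a block, 0 probes were called and 880 had an unadjusted p under 0.05, and no call changed. Signal over background limits Ldhal6b on all arrays and Gusb on Control 4.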
